A study of Homo sapiens with 40 samples.

Results

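APTX and ZSWIM7, 2 genes of DNA repair, held 33 of the 19972 transcript models in the deposited long-read catalogue, which covers 9460 genes. The members were all models filed under these 2 gene symbols: 17 for APTX and 16 for ZSWIM7. Both genes were chosen by their number of models in this catalogue, so these numbers are a description and not a result. What follows is which exons varied, where coding regions were called to start, and how far those coding regions differed.

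The series separated messenger RNA by ribosome load in H9, an established human embryonic stem cell line. Embryonic stem cells (ESC, labelled control) and neural progenitor cells (NPC, made from them by dual-SMAD inhibition) were each sampled as whole cytosol and as 3 gradient fractions: monosomes, the light polyribosome with 2 to 4 ribosomes, and the heavy polyribosome with at least 5. Polyadenylated RNA of this 1 line gave 40 libraries, of which 16 were long-read (duplicates per group) and 24 short-read (triplicates). The catalogue gives only where exons and coding regions lie, with nothing measured in single libraries, so ESC and NPC or the fractions are not compared, the labelled cell types could not be checked against markers, and depth is unknown.

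APTX encodes aprataxin, which removes AMP left on DNA ends when a ligase stalls during repair of strand breaks. Its amino-terminal forkhead-associated (FHA) domain binds the phosphorylated scaffold proteins XRCC1 and XRCC4, and the histidine triad (HIT) domain behind it carries the catalytic site, followed by a zinc finger that binds DNA. Inherited loss of aprataxin causes a form of ataxia, a disease of neurons. ZSWIM7, also called SWS1, encodes a small protein with a zinc-binding SWIM domain that pairs with SWSAP1 and promotes homologous recombination.

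The start codon furthest upstream in each gene could be read from RefSeq promoter windows (GRCh38.p14), called in 2 of 16 coding models of APTX and 5 of 8 of ZSWIM7. The letters at the other starts were not read. The deposited models do not name their build, but of 1887 deposited starts of coding regions that lie in such a window 1805 (95.7%) fell on ATG, and of 2098 donor sites 2068 (98.6%) were followed by GT. The 3 stretches below are the upstream APTX start up to the donor of its exon, the ZSWIM7 start, and a ZSWIM7 donor that lies before that start, each on the minus strand, with the start codon or the GT of the donor in capitals. In the first stretch the exon ends with the base before the last 2.
APTX start, chr9:33001565-33001604: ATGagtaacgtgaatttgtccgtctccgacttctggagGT
ZSWIM7 start, chr17:15999574-15999594: ATGgccgtagtgttgccggcg
ZSWIM7 donor before the start, chr17:15999654-15999665: ccacagGTaggc

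APTX lies on the minus strand of chromosome 9, and its models ran from 33025130 down to 32972615, a span of 52516 nt. They were built from 29 distinct exons and 16 distinct introns, had 2 to 8 exons, and were 792 to 2041 nt long with a median of 1822 nt. Of the 17 models 16 had a coding region (86.4% over all 19972 models, and 80.2% over the 827 models of the 70 genes with at least 10 models). Those 16 shared the second exon of 137 nt, the fifth of 60 nt, the sixth of 227 nt, the seventh of 104 nt and the acceptor of the last exon. The differences lay in the first exon, in the third exon, in the fourth exon and at the 3′ end.

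Transcription of APTX was modelled from 2 start regions 23502 nt apart. The distal region was used by 9 models, with 5′ ends at 33025130 in 5 models, 33025120 in 3 and 33025102 in 1. The proximal region was used by 8 models, with 5′ ends at 33001628, 33001622, 33001616, 33001608, 33001607 and 33001593 in 1 model each and at 33001577 in 2. RefSeq lists starts at 33025120 and 33001628, which are the 5′ ends of 3 distal models and of 1 proximal model. The 5′ ends lay within 28 nt of each other in the distal region and within 51 nt in the proximal one. Of the 4731 genes with at least 2 models, 853 (18.0%) had first exons that do not overlap, and of the 70 genes with at least 10 models 20 (28.6%) did.

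Within each region the first exon ended at more than 1 donor, all joined to the acceptor of the 137 nt exon except in model 17. The distal exon ended at 33025000 in 5 models, at 33024804 in 3 and at 33025023 in 1. The proximal exon ended at 33001567 in 6 models and at 33001516 in 2. The upstream start codon at 33001604 lies in the proximal region and so in no distal exon, and the letters of the shortest distal exon (108 nt) hold no ATG. Among the proximal models, 5 (models 3 to 7, numbered as deposited) begin upstream of the ATG. In contrast, model 2 begins 11 nt and models 11 and 12 begin 27 nt downstream of it. Whether deposited 5′ ends are complete was not tested. Model 2 shares its donor with models 3 to 7 and lacks the ATG only by its 5′ end. The 62 nt from 33001628 to the donor at 33001567 hold this 1 ATG.

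The stretches before the APTX start regions differed in composition and in the motifs they hold. They are printed on the minus strand, ending at the base before the farthest model start, because the data bear on both starts, and the ZSWIM7 stretch is set beside them since it also separates a head-to-head pair. Capitals mark matches on either strand to CCAAT, to GGGCGG, to CCGGAA and to TGACGTCA, and the search also covered TATAAA, which none held.
APTX distal, chr9:33025131-33025228: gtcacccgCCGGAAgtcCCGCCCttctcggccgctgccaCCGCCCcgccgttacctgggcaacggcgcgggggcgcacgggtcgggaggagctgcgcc
APTX proximal, chr9:33001629-33001728: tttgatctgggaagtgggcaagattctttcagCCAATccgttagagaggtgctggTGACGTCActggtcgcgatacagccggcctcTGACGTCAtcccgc
ZSWIM7, chr17:15999730-15999821: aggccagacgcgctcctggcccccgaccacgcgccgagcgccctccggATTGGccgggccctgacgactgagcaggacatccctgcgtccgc

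The distal APTX stretch was 78.6% G and C and held 2 matches to GGGCGG, found in 31.0% of 35116 RefSeq promoters over the 98 nt before the listed start, and 1 to CCGGAA (8.70%). The stretches end before the farthest model start, which for the distal APTX region and ZSWIM7 lies upstream of the start that RefSeq lists, so the windows are of equal length but not equally placed. The proximal stretch was 56.0% G and C and held 1 match to CCAAT (18.1% of promoters over 100 nt) and 2 to the palindrome TGACGTCA (1.17%). The ZSWIM7 stretch was 75.0% G and C and held 1 match to CCAAT (16.9% over 92 nt). Each share counts promoters with at least 1 match. The motifs were chosen with these sequences in view, so the shares are no test. A match is a run of letters and not a measured binding site. The distal APTX stretch is the whole gap of 98 nt to DNAJA1, a co-chaperone gene on the plus strand with 1 model from 33025229. The ZSWIM7 stretch is the gap of 92 nt to TTC19, a gene for assembly of respiratory complex III, with 2 models from 15999822. A further model from the same base is filed under an identifier that joins RPLP1P11 and TTC19. Over all 9460 genes, 1426 (15.1%) had a gene on the other strand starting head to head within 1000 nt. Behind its 3′ end ZSWIM7 was followed at 815 nt by the end of ADORA2B, an adenosine receptor gene on the plus strand.

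The third exon and the fourth exon of APTX came in 6 arrangements. The third exon, where present, had 2 acceptors 5 nt apart (32988129 and 32988124) and 2 donors 4 nt apart (32988083 and 32988079), which gave lengths of 51, 47, 46 and 42 nt. The fourth exon kept its donor at 32987544 and had acceptors at 32987846, 32987842 and 32987731, which gave 303, 299 and 188 nt. The choices went together: the donor at 32988083 was joined only to the 188 nt exon (7 models), and the donor at 32988079 only to the 299 nt exon (5 models). The third exon was skipped in 4 models, 3 with the 188 nt exon and 1 with the 303 nt exon. By the strict rule that an exon's own flanking sites must be joined directly in another model, the 47 nt form (3 models) and the 42 nt form (4 models) were cassette exons, each skipped in 3 models. Of the 4731 genes with at least 2 models, 2334 (49.3%) had at least 1 cassette exon. Of the 70 genes with at least 10 models 58 (82.9%) had at least 2, with a median of 3.

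All 16 coding models of APTX ended at the same stop, 32973498, but they were called from 4 starts. Of the 70 genes with at least 10 models 19 (27.1%) had 1 stop position, and 23 (32.9%) had at least 4 starts. Of the 4066 genes with at least 2 coding models 381 (9.37%) had at least 3 starts. The start furthest upstream, at 33001604, was called in 2 models, the one at 32989888 in the 137 nt exon in 3, the one at 32987762 in the fourth exon in 4, and the one at 32985976 in the fifth exon in 7. Together with the inner exons these gave 6 coding regions of 357, 342, 303, 288, 255 and 164 codons, taken to include the stop codon. In the genes with at least 10 models the median was 6 coding regions, and 37 of 70 (52.9%) had at least 6.

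**Figure D1:**
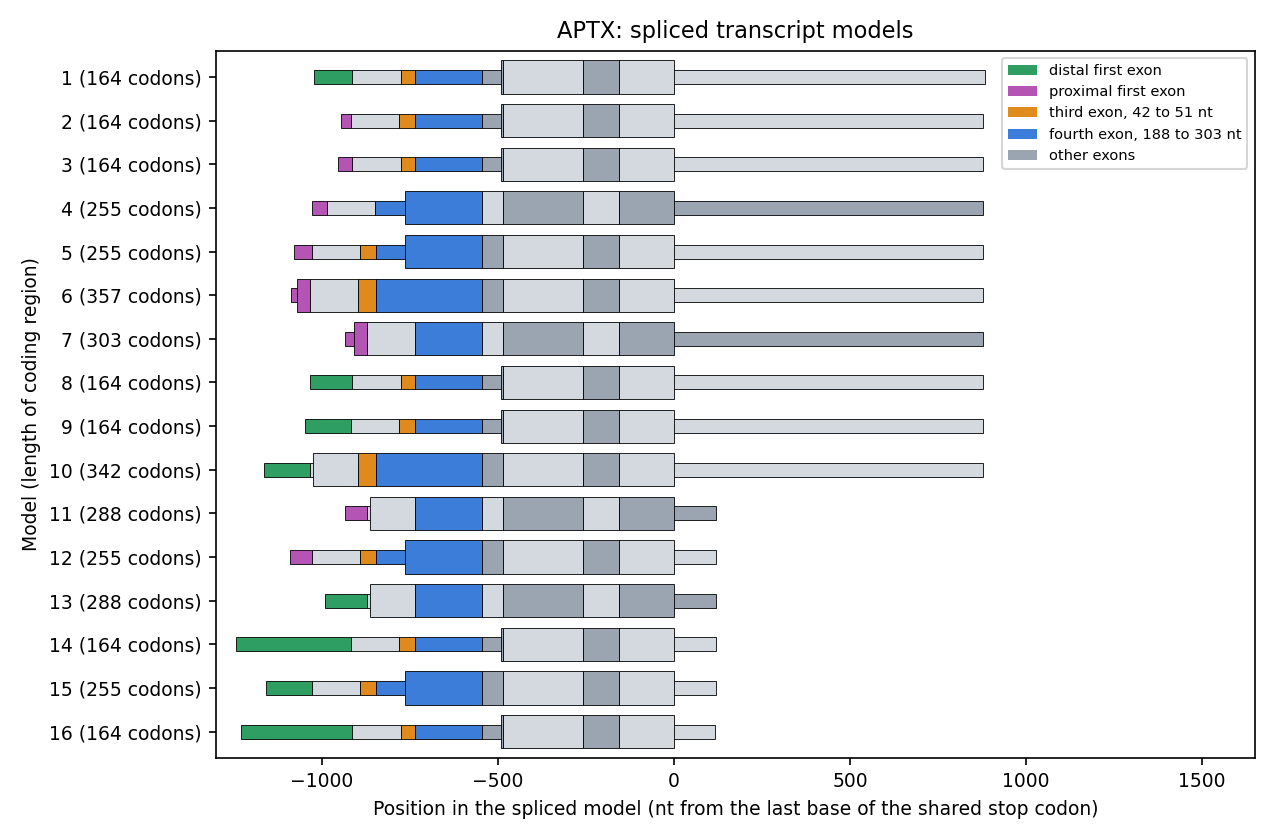
The 16 coding models of APTX, 1 per row (y axis, model number and codons), drawn spliced and to scale from the shared end of the coding region (x axis, nt). Tall boxes are coding and low boxes untranslated; the 7 models with 164 codons lack coding sequence in the coloured exons, and only models 6 and 7 have coding sequence in the first exon.

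The 2 longest coding regions belonged to the 2 models with the 51 and 299 nt exons. Model 6 began in the proximal region, contained the upstream ATG and was given 357 codons behind 18 nt of 5′ untranslated sequence. Model 10 began in the distal region and was given 342 codons behind 138 nt. The shorter region was the last 342 codons of the longer one, so the start regions differed here by the first 15 codons. Leaving out the third exon together with the 188 nt form of the fourth exon removed 162 nt, which is divisible by 3. Models 13 (distal) and 11 (proximal, beginning downstream of the ATG) were given 288 codons, and model 7 (proximal, with the ATG) 303, in each case 54 codons fewer than the counterpart with the 51 and 299 nt exons. In the 342-codon region the part left out ran from nt 131 to nt 292, behind 43 whole codons that both shared and ahead of 244 that both shared.

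The other arrangements were given starts further downstream. With the 46 and 299 nt exons (models 5, 12 and 15) or the 303 nt exon alone (model 4), the stretch from 32989888 to the stop was 5 or 47 nt shorter and left a remainder of 1 on division by 3, and 255 codons were called. That start, 32987762, lies in the part of the fourth exon that the 188 nt form lacks. With the 47 and 188 nt exons (models 2, 9 and 14) the stretch was 115 nt shorter and left a remainder of 2, and 164 codons were called. The region of 255 codons was the last 255 codons of the 342-codon region, without its first 87, and that of 164 lacked the first 178.

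The arrangement with the most models did not follow this arithmetic. The 42 and 188 nt exons (models 1, 3, 8 and 16) were 120 nt shorter, and the stretch of 906 nt from 32989888 to the stop was divisible by 3. In model 3 the stretch of 951 nt from the upstream ATG was also divisible by 3. All 4 were nevertheless given 164 codons. In this form the third exon is entered 5 nt later, so its 42 nt are read in another phase than in the 51 nt form until the next exon restores it, and whether a stop codon lies there was not tested. Over the 16 models, 5 of the 9 with a remainder of 0 were called from 32989888 or upstream of it. The 7 with another remainder could not be, since all 16 regions end at the shared stop and a coding region is divisible by 3.

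**Figure D2:**
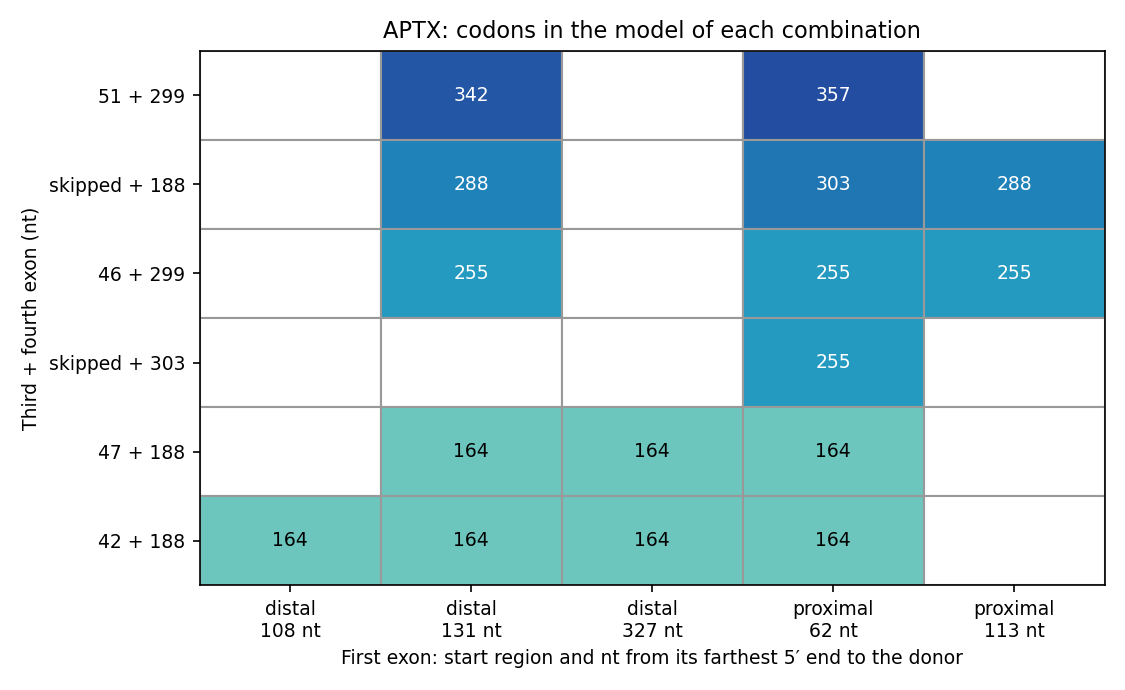
APTX models by arrangement of the third exon and the fourth exon (y axis, length of each in nt) and by first exon (x axis, start region and nt from the farthest 5′ end in that region to the donor). Each filled cell is 1 model with its number of codons and white cells are combinations with no model; 16 of 30 combinations were found, and all 7 models in the 2 lowest rows have 164 codons.

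Neither start region went with 1 arrangement. Of the 6 arrangements 5 were found behind both the distal and the proximal exon, and the 303 nt form without the third exon was found once, behind the proximal exon. The 2 models with the proximal donor at 33001516 had 255 and 288 codons, and the 2 coding models with the distal donor at 33024804 both had 164. No combination had more than 1 model, since each of the 17 APTX models has its own chain of introns, so the number of models per arrangement says nothing about abundance.

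At the 3′ end the last exon of APTX stopped in 2 places 757 nt apart. In 10 models it was long, with 877 nt of 3′ untranslated sequence in 9 models and 883 nt in model 1. In 6 models it was short, with 120 nt in 5 models and 118 nt in model 16. The proximal donor at 33001567 was found with the long end in all 6 of its models, and the donor at 33001516 with the short end in both. The coding models with the distal exon were divided 4 and 4. Each chain of introns has only 1 model and so 1 deposited 3′ end, and whether donor and end go together was not tested. The stop codon lay in the last exon in all 16, so none was a candidate for nonsense-mediated decay, called here when over 50 nt separate the end of a coding region from the last junction behind it. The rule sees only the called coding region. Whether reading from a start further upstream meets an earlier stop was not tested. Of 8578 genes with a coding model 430 (5.01%) had at least 1 candidate, and of the 70 genes with at least 10 models 27 (38.6%) did. Model 17 stood apart: it joined a distal first exon of 299 nt (33024804 to 33025102) to a last exon of 493 nt at 33015733 to 33016225, had no coding region and shared only that donor with the rest.

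ZSWIM7 lies on the minus strand of chromosome 17, from 15999729 down to 15976562, a span of 23168 nt. Its 16 models were built from 30 distinct exons and 14 distinct introns, had 5 to 8 exons, and were 590 to 1273 nt long with a median of 891 nt. A coding region was given for 8 of the 16. Of the 70 genes with at least 10 models 9 (12.9%) had at least 8 models without one. All 16 held exons of 103 nt (15987266 to 15987368) and 105 nt (15981040 to 15981144). The variable parts were the donor of the first exon, an exon of 22 nt, an exon of 93 nt and the arrangement behind the stop codon.

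All first exons of ZSWIM7 overlapped and formed 1 start region, with 5′ ends at 14 positions from 15999635 to 15999729, 94 nt apart. RefSeq lists its start at 15999704, where model 11 begins. The first exon ended at 15999660 in 3 models, at 15999519 in 4, at 15999506 in 5 and at 15999503 in 4. The main start codon at 15999594 lies 66 nt downstream of the first of these donors and upstream of the other 3. It was therefore spliced out of models 2, 3 and 16 and was part of the exon in the other 13. From this ATG to the end of the exon were 76, 89 and 92 nt, so the last 2 donors were 13 and 16 nt downstream of the one at 15999519, neither of which is divisible by 3.

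**Figure D3:**
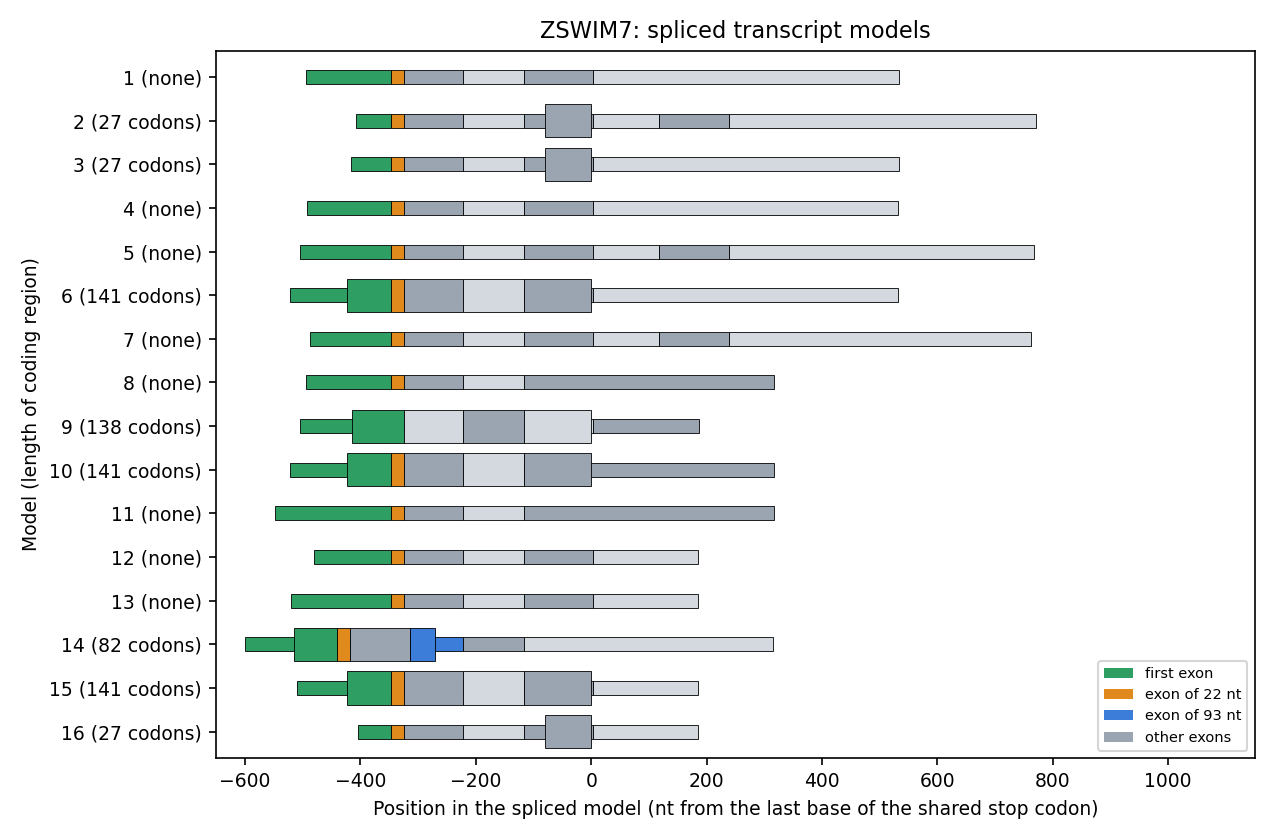
The 16 models of ZSWIM7, 1 per row (y axis, model number and codons, none where no coding region was given), drawn spliced and to scale from the last base of the shared stop codon (x axis, nt). Tall boxes are coding and low boxes untranslated; 8 models have coding boxes, and the 22 nt exon is missing from model 9 alone.

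The donor went with the coding region. Models 6, 10 and 15, with the donor at 15999519, were given 141 codons from 15999594 to 15978047. All 4 models with the donor at 15999503 and 4 of the 5 with the donor at 15999506 had no coding region. In these 8 the stretch from the ATG to the stop at 15978047 was 439 or 436 nt and left a remainder of 1 on division by 3. In the 5 models in which it was divisible by 3 a coding region was called from the ATG, in model 14 to an earlier stop. In the 8 others a region from the ATG to the stop at 15978047 is not possible, and none to another stop was called.

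Model 9 combined 2 changes. Its first exon ended at 15999506, 13 nt beyond the donor of the 141-codon models, and it was the 1 model that skipped the exon of 22 nt (15993757 to 15993778), a microexon held by the other 15. The 2 changes together shortened the stretch by 9 nt, to 414 nt or 138 codons. The coding region shared its first 25 whole codons and its last 108 with the region of 141 codons. The skipping form thus rested on a single model, and the 4 models with the same donor and the 22 nt exon (4, 5, 8 and 13) had no coding region.

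The remaining coding regions were shorter. Model 14 held an exon of 93 nt (15986800 to 15986892) that the other 15 skipped. Its coding region had the first 67 codons in common with the region of 141 and 15 more in the added exon, up to a stop at 15986848 inside it, in all 82 codons. This stop lay 153 nt upstream of the last junction, so model 14 was a decay candidate. Models 2, 3 and 16, whose first exon ends before the ATG, were given the last 27 codons of the 141-codon region, from 15978127. The first exon of models 2 and 16 holds no ATG, and that of model 3 reaches one at 15999722.

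**Figure D4:**
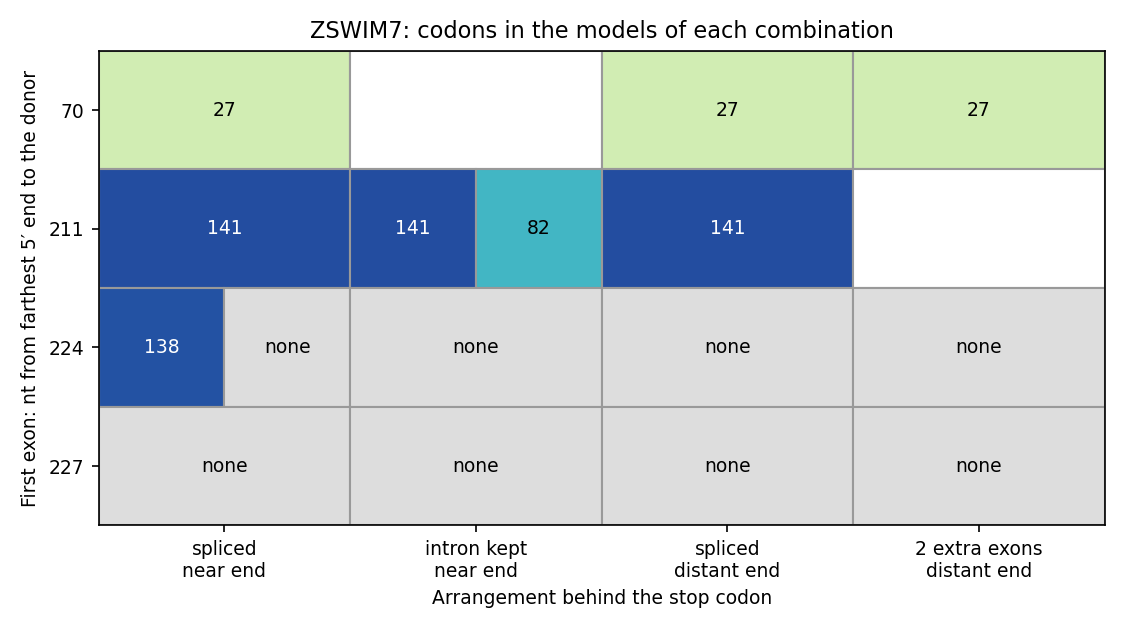
ZSWIM7 models by donor of the first exon (y axis, nt from the farthest 5′ end of the gene to the donor) and by arrangement behind the stop codon (x axis). Numbers are codons, grey cells are models without a coding region, white cells hold no model and a divided cell holds 2 models; the row at 211 nt holds the 3 models with 141 codons.

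Behind the stop codon ZSWIM7 had 4 arrangements and 2 groups of 3′ ends. In 9 models the end was near, at 15977730 or 15977732, and in 7 distant, from 15976562 to 15976569. Of the 9, 4 kept an intron of 130 nt (15977914 to 15978043) and 5 had it spliced out. Of the 7, 3 held exons of 114 nt (15977800 to 15977913) and 122 nt (15977579 to 15977700), and 4 went straight to the last exon. Retained introns were found in 820 of the 4731 genes with at least 2 models (17.3%) and in 37 of the 70 with at least 10 (52.9%).

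These arrangements were spread over the donors. The donors at 15999506 and 15999503 were each found with all 4 arrangements. The donor at 15999519 was found with 3 of the 4, without the extra exons, and the donor at 15999660 with 3 of the 4, without the kept intron. The shared stop codon lies 3 nt before the end of its exon wherever the next intron is removed, so in models 3, 6, 9, 15 and 16 it was 3 nt upstream of the last junction and no candidate for decay. In model 2, which holds both extra exons, the stop of its 27 codons lay 239 nt upstream of the last junction, and the model was a candidate. Models 5 and 7 held the same 2 exons and had no coding region. With models 2 and 14 ZSWIM7 had 2 candidates, and 27 of the 70 genes with at least 10 models (38.6%) had at least 1. The rule needs a coding region, so the 8 ZSWIM7 models without one could not be candidates.

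Set against each other, 16 of 17 APTX models and 8 of 16 ZSWIM7 models had a coding region. The regions of both genes differed in start and in inner exons, and those of ZSWIM7 also in stop. APTX had 4 starts, 1 stop and 6 coding regions among 16 coding models, and ZSWIM7 had 2 starts, 2 stops and 4 coding regions among 8. Of the 4066 genes with at least 2 coding models, 1822 (44.8%) had at least 2 starts and 1692 (41.6%) at least 2 stops. Among the 70 genes with at least 10 models 50 (71.4%) had at least 2 stops. Of the 70 genes with at least 10 models, APTX had the most coding models with 16, and 54 had at least as many starts as ZSWIM7. Of the 14 APTX models with fewer than 342 codons, 10 had the 188 nt form of the fourth exon, whose acceptor lies 111 nt from that of the 299 nt form, and 3 differed from the 2 longest at these exons only by the 5 nt at the acceptor of the third exon. In ZSWIM7 donors 13 or 16 nt apart separated the models with 141 codons from the 8 with none. Since both genes were picked for their models, no test was made of these values.

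**Figure D5:**
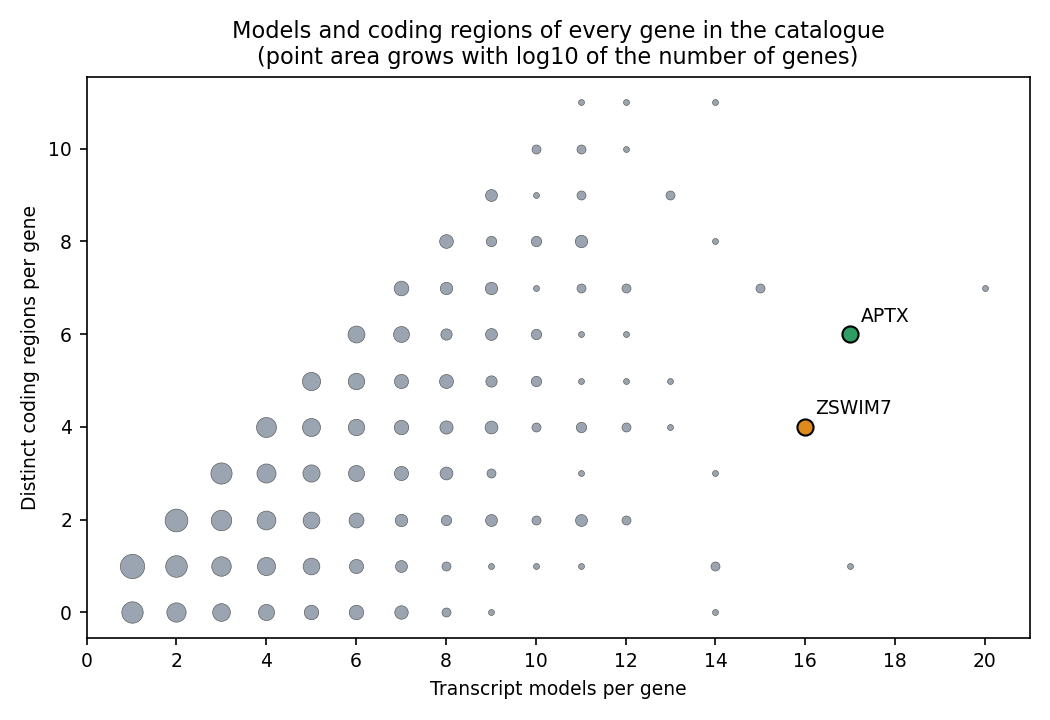
Number of distinct coding regions (y axis) against number of transcript models (x axis) for each of the 9460 genes, with points at the same place drawn as 1 whose area grows with the log10 of the number of genes. APTX lies at 17 models and 6 coding regions and ZSWIM7 at 16 and 4, a place it shares with ZBTB8OS.

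The genes most like APTX in numbers of models, coding models, coding regions, starts, stops and cassette exons were DMKN, CERS4 and ZBTB8OS, with sums of absolute differences over these 6 counts of 9, 11 and 11. For ZSWIM7 they were ZBTB8OS, AMZ2P1 and KRTCAP3, with sums of 5, 7 and 7. ZBTB8OS had 16 models, 11 of them coding, with 4 coding regions. DMKN had 20 models, 15 of them coding, with 7 coding regions from 2 starts, against 4 starts in APTX.

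Of 16 genes of strand-break repair 13 had a model, 11 had at least 2 and the median of the 13 was 4 models, against a median of 2 over all 9460 genes, of which 4731 had at least 2. XRCC1, the scaffold of single-strand break repair, had 4 models, and XRCC4, a scaffold of end joining, had 5. TDP1, which removes topoisomerase I from DNA ends, and the nuclease APEX1 had 6 each, the repair polymerase gene POLB 9, the ADP-ribosyltransferase gene PARP2 4, and TDP2 and NHEJ1 3 each. Those of XRCC1 had 4 coding regions from 2 starts with 1 stop, and those of POLB 7 from 3 starts.

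Of 15 genes of homologous recombination 10 had a model, 7 had at least 2, and the median of the 10 was 3 models. SWSAP1, the direct partner of ZSWIM7, had 1 model, as did SPIDR, a scaffold protein of the same pathway. RAD51C had 9 models with 6 coding regions, and RAD51D had 4 with 4. SWI5 had 4 models and SFR1 and XRCC3 3 each. Of the 23 genes with a model in the 2 lists, TDP1 and PARP2 had 1 decay candidate each. Over all 8578 genes with a coding model, 430 (5.01%) had at least 1. The absence of models for a gene says nothing about its expression, since depth is unknown.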

How the data were processed

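The authors' deposited file is 1 set of transcript models, labelled long-read, with PacBio named as source on each line per the file itself; its values are positions in nt of transcripts, exons and coding regions. Fractions came from Frac-seq, and R2C2 gave the long reads, per the labels' protocols. STAR 2.7.8a and Salmon 1.9.0 are listed in the submitters' processing notes, with no statement of what each did. The sources used here do not say how models and coding regions were called, which libraries entered, what was filtered or on which build. A filter or caller could change every count of models. Labels put each library in a group, but a test between groups, planned for counts per library, was not run.

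Positions are counted from 1 and printed as deposited. Models were read and numbered in file order with Python 3.11.15, and plots were made with matplotlib 3.10.9. Introns are gaps between exons. A cassette exon is internal and its flanking splice sites are joined directly in another model. First exons were grouped when they overlap. Codon counts are the nt of a coding region divided by 3, as in the ZSWIM7 region of 423 nt and 141 codons. They are taken to include the stop codon, but the letters at the coding ends were not read. Gene-wide counts use the chromosome and strand with most models of a gene. The functions were tested on simulated models. Sequences and RefSeq starts come from RefSeq promoter windows (GRCh38.p14, 250 nt before to 50 nt after each start), in which both genes were matched by symbol. Motifs were chosen with these sequences in view. A planned mapping onto RefSeq proteins was not made.

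The members and the 2 gene lists were chosen with earlier results of these data known. Named genes were both members, genes of these lists with at least 3 models (of which 2 are not reported here, and also SWSAP1 and SPIDR, named after their values were seen), genes within 1000 nt, and per member the 3 nearest genes by 6 counts. Alternatives asked for each form in at least 2 models, other distances for decay candidates, other groupings of first exons, and coding regions away from the ends of the model.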

Additional observations from a re-analysis of the deposited data

How the results depend on the processing

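Of 20 alternatives, 15 left a count within 1.5 times its value. Among them were all for APTX cassette exons (2 forms of 1 exon), starts (4), first exon groups (2) and decay candidates (0). All for ZSWIM7 starts (2) and first exon groups (1) were also among them. Some of the 15 could not change a count. No coding region of either gene lay within 2 nt of a model end, and every APTX stop lay in the last exon. With each coding region required in at least 2 models, APTX kept 3 of 6 and ZSWIM7 2 of 4, since the others are each found in a single model. When both the holding and the skipping form needed 2 models ZSWIM7 had 0 cassette exons, and with coding models only it had 1 of the 2, because the 22 nt exon then has no model with the same donor that holds it. With a stop anywhere upstream of the last junction ZSWIM7 had 7 decay candidates in place of 2, the added 5 having the stop 3 nt before the junction. No paired analysis was possible because the file has no value per library. Depth is unknown, and 1 model may rest on few reads.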
